A study of Mus musculus with 4 samples.

Results

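Tcf21, Hand1, Hand2, Foxf1, Foxf2, Tbx5, Tbx18, Wt1, Osr1 and Isl1 are transcription factor genes of the lateral plate mesoderm and of its splanchnic layer. Their rows were taken by gene symbol from the deposited count tables, which held 10 of these 10 genes among 24421, and all 10 had a count in at least 1 library. The group was chosen by the measured rise of Tcf21, since it was drawn up after Tcf21 had been seen among the genes with the largest rises from Undiff to Day4. The differences between Undiff and Day4 are therefore given for these 10 genes as a description, with no p-value. RNA was sequenced from R1, an established line of mouse embryonic stem cells (ESCs), in a pair of states with 2 libraries each. Undiff is described in the methods as R1 cells kept in medium with leukaemia inhibitory factor (LIF), a cytokine that holds ESCs undifferentiated, and in the labels as embryoid bodies, which are aggregates in which ESCs differentiate. Day4 consisted of embryoid bodies grown for 4 days without LIF and then for 4 days with retinoic acid (RA), the active derivative of vitamin A, at 2 µM in the design text and at 2 mM in the treatment protocol. By the methods, Day4 thus differed from Undiff in the absence of LIF, in growth as embryoid bodies and in time in culture as well as in RA. A culture without RA was not analysed here. No transgene or deletion was named for either state, and the methods describe the replicates as grown and treated separately.

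The lateral plate mesoderm lies at the flank of the vertebrate embryo and splits into a somatic layer, which forms body wall and limb bud mesenchyme, and a splanchnic layer, which forms the heart, the mesenchyme of gut and lung, and the mesothelium that covers these organs. BMP ligands and Hedgehog ligands from neighbouring tissues act on these layers, and RA helps to set their boundaries along the body axis. The factors described here belong to several protein families. Tcf21, Hand1 and Hand2 are basic helix-loop-helix (bHLH) proteins, Foxf1 and Foxf2 are forkhead proteins, Tbx5 and Tbx18 are T-box proteins, Wt1 and Osr1 are zinc finger proteins, and Isl1 is a LIM homeodomain protein.

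The libraries held 36674893 and 32099074 counts on genes for Undiff and 34956489 and 47730944 for Day4. The share of fragments that fell on no annotated gene was 12.1% and 13.2% of all fragments assigned to genes, to no gene or to several genes in Undiff and 7.50% and 7.74% in Day4. Normalized counts are counts scaled to a common effective library size by TMM, and CPM are counts per effective library size, on which scale the floor of 3 counts lay at 0.0615 to 0.0959. The p-values given for other genes test the difference between Day4 and Undiff against the spread between 2 cultures per state. The spread of each gene was moderated by that of the other genes.

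All 10 factors passed the thresholds for a differentially expressed gene (DEG), which were an adjusted p-value of at most 0.05 from edgeR, a log2 fold change of at least 1 in size and a mean of 5 or more normalized counts. Of all 19891 genes tested, 42.8% passed them, and nothing is read from the count of the 10 since their choice used this contrast. Tcf21, Hand2, Foxf1, Foxf2, Tbx5, Tbx18, Wt1, Osr1 and Isl1 were called higher in Day4, against 22.2% of all genes tested. Hand1 was called lower, against 20.6% of all genes tested. For each of the 10 factors, the 2 Undiff values and the 2 Day4 values did not overlap. The share of all genes tested with no such overlap was not counted, so nothing is read from this either. The RNA came from whole cultures, so that more cells expressing a factor and more of its RNA per cell cannot be told apart.

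**Figure D1:**
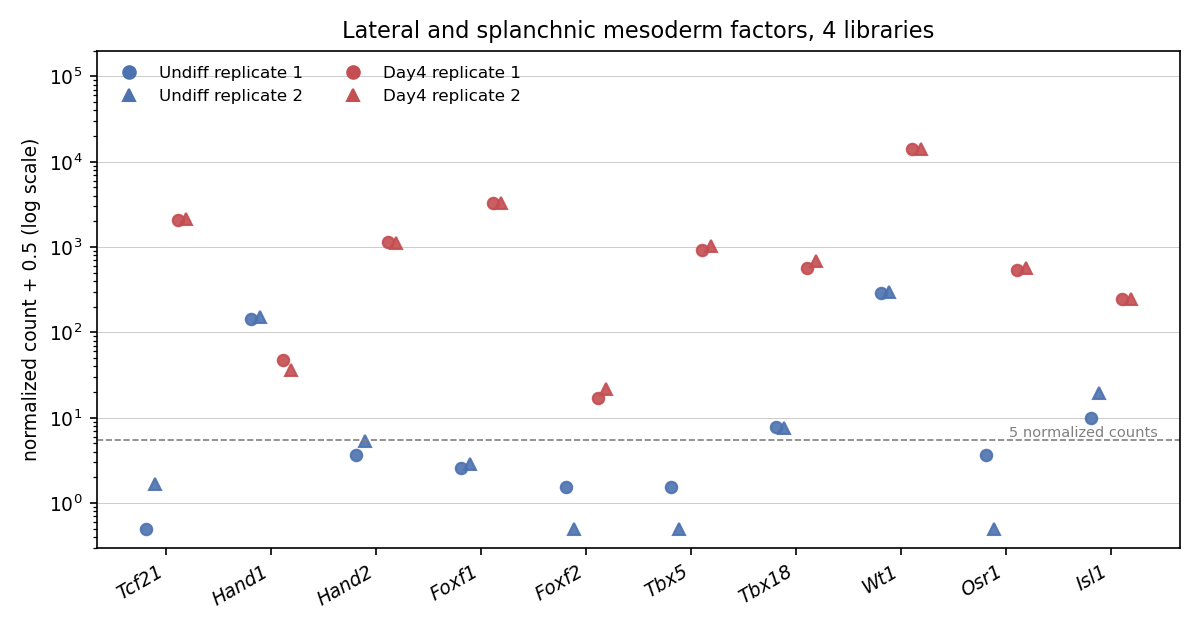
Normalized counts of the 10 factors in the 4 libraries, with 0.5 added and a log axis. Blue symbols are Undiff and red symbols are Day4, circles are replicate 1 and triangles replicate 2, and the dashed line marks 5 normalized counts. Hand1 is the factor whose Day4 values lie below its Undiff values, and Foxf2 has the lowest Day4 values.

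Where the RefSeq promoter table held an entry, the sequence before the start site was read, which was the case for Tcf21, Hand2, Foxf2, Tbx18 and Isl1. Windows of 250 bases before the RefSeq start (build GRCm38.p6) were searched on both strands for AGGTCA, which is part of the elements bound by RA receptors and other nuclear receptors, for GATA, for the E-box CANNTG bound by bHLH dimers, and for TATAAA. The windows of Tcf21, Hand2 and Isl1 are shown because they belong to factors with a high, an intermediate and a low Day4 level and differ in CpG content. Each is written 5′ to 3′ on the strand of the gene, with matches to a motif in capitals, and stops before the first base of the gene model in GENCODE.
Tcf21 (chr10:22820175-22820393, minus strand): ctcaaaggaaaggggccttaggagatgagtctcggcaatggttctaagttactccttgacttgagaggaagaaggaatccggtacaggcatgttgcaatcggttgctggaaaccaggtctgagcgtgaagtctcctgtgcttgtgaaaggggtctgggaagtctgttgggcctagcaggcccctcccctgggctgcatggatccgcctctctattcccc
Hand2 (chr8:57320733-57320982, plus strand): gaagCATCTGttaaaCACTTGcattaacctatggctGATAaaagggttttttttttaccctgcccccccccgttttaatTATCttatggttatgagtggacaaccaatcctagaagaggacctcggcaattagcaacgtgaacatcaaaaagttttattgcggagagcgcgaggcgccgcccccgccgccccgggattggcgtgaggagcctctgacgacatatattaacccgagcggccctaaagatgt
Isl1 (chr13:116309690-116309938, minus strand): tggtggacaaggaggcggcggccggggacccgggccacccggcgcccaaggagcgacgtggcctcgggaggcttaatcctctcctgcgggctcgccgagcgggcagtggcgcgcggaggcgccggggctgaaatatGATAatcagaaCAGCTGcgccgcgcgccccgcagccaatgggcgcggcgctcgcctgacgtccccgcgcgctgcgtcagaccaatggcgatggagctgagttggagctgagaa

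AGGTCA and TATAAA were found in 0 of the 5 windows, and they occurred in 14.0% and 12.4% of all 32851 promoter windows of that length. These letters being absent says nothing about binding elsewhere or to other versions of the motif. CANNTG occurred in the windows of Hand2, Tbx18, Foxf2 and Isl1, and in 66.2% of all windows. In the Hand2 window, the capitals mark the E-boxes that start at positions -246 and -235 and the GATA matches at -214 and -171, counted from the start site. In the Isl1 window they mark a GATA match at -114 and an E-box at -103. GATA occurred in 53.6% of all windows, and the GATA match of Tcf21 at -30 falls on the 31 bases that GENCODE places inside the gene and that are not printed. The Tcf21 window held 5 CpG dinucleotides, with an observed to expected ratio of 0.293, whereas the Hand2 window held 15 and a ratio of 0.993 and the Isl1 window 33 and a ratio of 1.05. The median over all windows was 6 CpG dinucleotides and a ratio of 0.374, so that Tcf21 was near the median and Hand2 and Isl1 were above it. The Tbx18 window had a ratio of 0.836 and the Foxf2 window a ratio of 0.724.

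Among the bHLH factors, Tcf21 and Hand2 were near absent in Undiff and abundant in Day4, whereas Hand1 was the more abundant of the Hand genes in Undiff and was lower in Day4. Tcf21 (chromosome 10, 22817281 to 22820174, minus strand, on GRCm38) is needed for the mesenchyme of lung, kidney and spleen and for epicardial fibroblasts. It had 0 and 1 fragments in the Undiff libraries and 2002 and 2784 in the Day4 libraries. The Day4 level was 2114 ± 32.6 normalized counts (SD, n = 2). The Day4 to Undiff ratio was 3802, and because it rests on 1 fragment in Undiff its 95% counting interval ran from 682 to 150219. Hand2 (chromosome 8, 57320983 to 57324633, plus strand) acts in the heart, the limb bud, the branchial arches and sympathetic neurons. It had 3 and 4 fragments in Undiff and 1112 and 1449 in Day4, where its level was 1137 ± 34.7 normalized counts (SD, n = 2). The Day4 level of Hand2 was 291 times that of Undiff (95% counting interval 141 to 724). Both Undiff libraries were near 0 for Tcf21 and Hand2, and their Day4 libraries lay close together.

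Hand1 (chromosome 11, 57828705 to 57832818, minus strand) acts in the trophoblast, the extraembryonic mesoderm and the left ventricle. It had 136 and 127 fragments in Undiff and 45 and 46 in Day4, which corresponded to 147 ± 7.24 and 41.2 ± 8.27 normalized counts (SD, n = 2). The Undiff level was 3.64 times the Day4 level (95% counting interval 2.86 to 4.67). Hand1 and Hand2 are close relatives, so it was checked whether reads could be shared between them. The longest identical run between any of their annotated transcripts was 17 bases, and between those of Tcf21 and Hand1 it was 18 bases, well under the read length given in the methods. Markers of the trophoblast, a tissue in which Hand1 is active, were read beside it. Of 7 tested, Ascl2, Gcm1 and Tfap2c were called lower, Plac1 was called higher and 3 did not pass. Their summed level was 33.8 and 35.4 CPM in Undiff and 4.69 and 5.02 CPM in Day4, but most of it was Tfap2c, and without Tfap2c it was 4.06 and 3.96 CPM in Undiff and 3.46 and 3.67 CPM in Day4. Prl3d1, a hormone gene of trophoblast giant cells, was at 0 in all 4 libraries, and the part of the trophoblast genes in the Hand1 values was not tested.

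Both forkhead factors were higher in Day4, but at very unequal levels. Foxf1 (chromosome 8, 121084386 to 121088144, plus strand) is a Hedgehog target gene of the splanchnic mesoderm that is needed for gut and lung mesenchyme and for blood vessels. It had 2 fragments in each Undiff library and 3158 and 4323 in Day4, with 3309 ± 14.3 normalized counts in Day4 (SD, n = 2). The ratio was 1486 (95% counting interval 580 to 5455). Foxf2 (chromosome 13, 31625816 to 31631403, plus strand) acts in gut, palate and brain pericytes. It had 1 and 0 fragments in Undiff and 16 and 28 in Day4, with 19.1 ± 3.38 normalized counts in Day4 (SD, n = 2) and a ratio of 35.0 (95% counting interval 5.96 to 1412). Foxf2 was above the floor in each Day4 library and was the least abundant of the 10 factors there. The longest identical run between the transcripts of Foxf1 and Foxf2 was 41 bases, the longest among the pairs examined.

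The T-box factors rose from near 0 to similar levels. Tbx5 (chromosome 5, 119832668 to 119885219, plus strand) is required for the forelimb and for the atria and is mutated in Holt-Oram syndrome. It had 1 and 0 fragments in Undiff and 880 and 1339 in Day4, with 974 ± 76.9 normalized counts in Day4 (SD, n = 2). Its ratio was 1763, with a 95% counting interval from 316 to 69665. Tbx18 (chromosome 9, 87702800 to 87731260, minus strand) marks the epicardium, the sinus horns and the mesenchyme of the ureter. It had 7 and 6 fragments in Undiff and 538 and 886 in Day4, or 7.24 ± 0.0817 and 621 ± 83.6 normalized counts (SD, n = 2). Its ratio was 87.0 (95% counting interval 50.7 to 164), and the Day4 libraries differed more for Tbx18 than for the other factors with a Day4 mean above 100 normalized counts.

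The zinc finger factors differed in their starting level. Wt1 (chromosome 2, 105126529 to 105173616, plus strand) acts in the epicardium, the mesothelium, the gonad and the podocytes of the kidney. It had 276 and 251 fragments in Undiff and 13490 and 18152 in Day4. Wt1 was therefore counted at 294 ± 8.99 normalized counts in Undiff and at 14014 ± 110 in Day4 (SD, n = 2), a ratio of 47.7 (95% counting interval 43.8 to 52.1). Both Undiff libraries were above 0 for Wt1 and close to each other, unlike those of Osr1. Osr1 (chromosome 12, 9570116 to 9581500, plus strand) marks the intermediate mesoderm and part of the lateral plate and is needed for kidney, gonad and heart septation. It had 3 and 0 fragments in Undiff and 511 and 738 in Day4, with 550 ± 23.2 normalized counts in Day4 (SD, n = 2). Its ratio was 331 (95% counting interval 113 to 1606). Osr1 overlaps the noncoding gene 1700022H16Rik on the opposite strand, which had 0 counts in all 4 libraries and shares no exon bases with it.

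Isl1 (chromosome 13, 116298281 to 116309689, minus strand) marks progenitors of the second heart field and the hindlimb field, and is also a gene of motor neurons, sympathetic neurons and pancreatic endocrine cells. It had 9 and 16 fragments in Undiff and 233 and 322 in Day4, or 14.3 ± 6.91 and 245 ± 2.71 normalized counts (SD, n = 2). The Day4 level was 17.6 times that of Undiff (95% counting interval 11.8 to 27.5). Since Isl1 is also used by neurons, markers of those were read beside it. The 7 motor neuron markers, of which 1 rose and 2 fell, summed to 1.50 and 0.959 CPM in Undiff and to 0.865 and 1.70 CPM in Day4, with Chat at 0 in both Day4 libraries and Lhx3 called higher from 2 and 1 fragments to 12 and 52. The 6 sympathetic neuron markers, which bear on Hand2 as well, summed to 3.15 and 4.15 CPM in Undiff and to 12.9 and 12.8 CPM in Day4, and without Gata3 to 2.67 and 3.20 CPM and to 4.49 and 4.70 CPM. Gata3 was called higher among them and Phox2a lower, while Th had 10 and 5 fragments in Undiff and 6 in each Day4 library. Gata3 shares exon bases with 9230102O04Rik and Phox2a with Inppl1. The part of neurons in the Isl1 and Hand2 values was not tested.

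Levels of different genes were compared per length of exon, as TPM, which divides counts by exon length and scales each library to the same sum, over 23336 genes with an annotated length. In Day4, Wt1 was highest with 239 ± 1.92 TPM (SD, n = 2), followed by Foxf1 with 145 ± 0.596 and Tcf21 with 95.3 ± 1.45. Hand2 had 51.2 ± 1.57 TPM, Osr1 28.2 ± 1.18, Tbx5 22.04 ± 1.74 and Tbx18 13.9 ± 1.87. Isl1 had 6.56 ± 0.0710 TPM, Hand1 2.18 ± 0.439 and Foxf2 0.856 ± 0.151. The Day4 replicate ranges of neighbours in this order did not overlap for any pair, and the narrowest step was that from Osr1 to Tbx5, at 1.28-fold. Wt1 lay above 97.1% of all genes with a length in Day4 and Foxf2 above 43.4%. In Undiff the order was different, with Hand1 at 7.19 ± 0.327 and Wt1 at 4.64 ± 0.124 TPM above the other 8 factors, which had 0.352 TPM or less.

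Pairs of relatives were not balanced in their levels. The Day4 TPM of Foxf1 was 193 and 151 times that of Foxf2 in the 2 replicates. The TPM of Hand2 was 21.0 and 26.8 times that of Hand1 in Day4, whereas in Undiff the TPM of Hand1 was 53.4 and 37.4 times that of Hand2, so that the more abundant Hand gene was a different one in each state. Tbx5 and Tbx18 were closer, with Tbx5 at 1.65 and 1.53 times the TPM of Tbx18 in Day4.

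**Figure D2:**
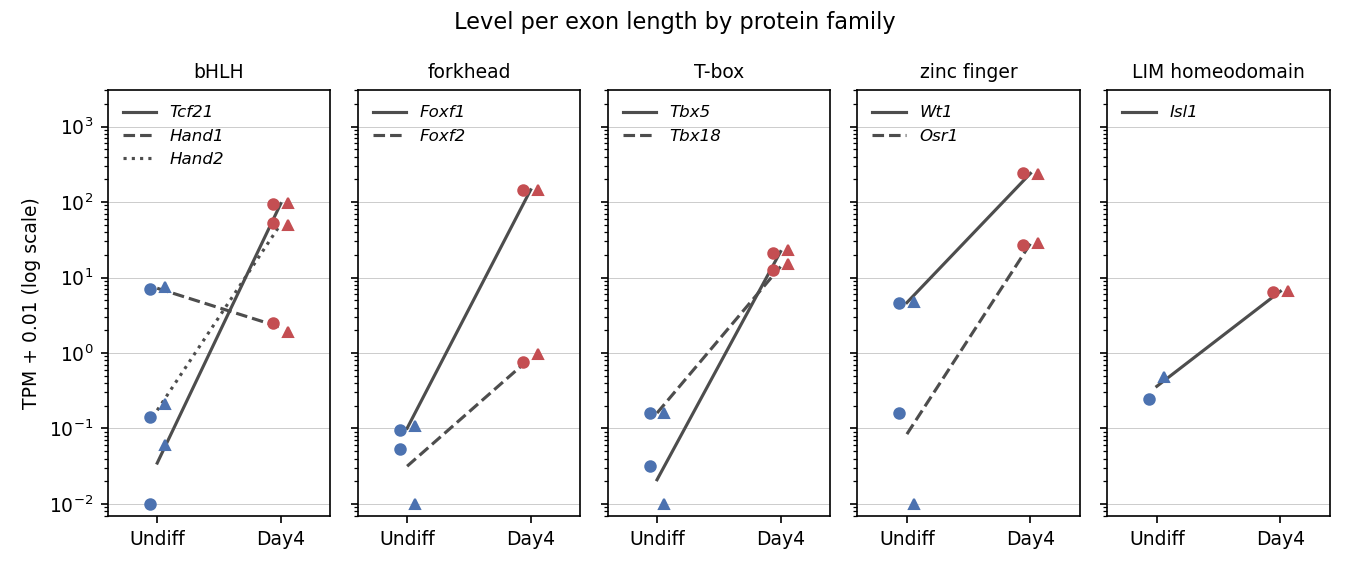
TPM of the 10 factors by protein family, with 0.01 added and a log axis. Each symbol is a library, with circles for replicate 1 and triangles for replicate 2, and the lines join the means of Undiff and Day4. The lines of Hand1 and Hand2 cross between 7.19 and 2.18 TPM for Hand1 and between 0.164 and 51.2 TPM for Hand2.

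The Day4 replicates were close for most of the factors. The log2 ratio of replicate 2 to replicate 1 in Day4 had a median of 0.03 over the 10 factors and ranged from -0.41 for Hand1 to 0.35 for Foxf2. Over the 15517 genes with a mean of at least 5 normalized counts in Day4, the median was 0.00 and the 5th and 95th percentiles were -0.41 and 0.40, about the range of the 10 factors. In Undiff, Hand1, Wt1, Tbx18 and Isl1 had a mean of at least 5 normalized counts. Isl1 had the largest Undiff ratio among these 4, at 0.99, with 9 and 16 fragments.

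The genes next to the factors were read from the annotation, which the choice of the factors did not use. Foxf1 starts 1276 bases from Fendrr, a long noncoding RNA gene transcribed away from it that is needed for the heart and the body wall. Fendrr had 1 and 0 fragments in Undiff and 224 and 350 in Day4 (log2 fold change 8.54 ± 0.40 SE, adjusted p = 2.8e-11 from edgeR), and its ratio of 456 had a 95% counting interval from 81.5 to 18044. On the other side of Foxf1, Mthfsd rose by a log2 fold change of 2.02 ± 0.06 (adjusted p = 3.8e-12). Wt1 starts 19 bases from Wt1os, a noncoding gene transcribed in the opposite direction. Wt1os had 13 and 6 fragments in Undiff and 871 and 1200 in Day4 and rose by a log2 fold change of 6.42 ± 0.16 (adjusted p = 4.7e-13). The annotated gene bodies of Foxf1 and Fendrr, and those of Wt1 and Wt1os, do not overlap. The methods name the Direct RNA libraries as counted by strand and give no option for the TruSeq libraries on genes, so fragments from the opposite strand may not be separated here. Near Hand2, the noncoding gene 5033428I22Rik lies 7485 bases away and had 0 fragments in both Undiff libraries and 157 and 226 in Day4. Set against 3 counts over the Undiff libraries, 5033428I22Rik was at least 101-fold higher in Day4 (adjusted p = 2.5e-09).

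Foxf2 has as its neighbour Foxc1, a forkhead gene of paraxial mesoderm and vessels, at a distance of 175230 bases. Foxc1 had 8 and 5 fragments in Undiff and 437 and 630 in Day4 (log2 fold change 6.00 ± 0.20, adjusted p = 7.3e-12), and its Day4 level of 8.51 ± 0.347 TPM lay above the 0.856 ± 0.151 TPM of Foxf2 (SD, n = 2). The noncoding gene 1700018A04Rik, which starts 24 bases from Foxf2 in the opposite direction, had 0 counts in all 4 libraries. The neighbours of Tcf21 rose less, with Tbpl1 at a log2 fold change of 1.02 ± 0.05 (adjusted p = 5.0e-10) and Eya4 at 1.23 ± 0.27 (adjusted p = 0.0010). Tbpl1 shares exon bases with Slc2a12, so its counts are uncertain. Parp8, 545131 bases from Isl1, rose by 3.36 ± 0.11 on the log2 scale (adjusted p = 4.1e-12), and Them7, next to Wt1, by 2.27 ± 0.42 (adjusted p = 2.4e-04). Larp1 near Hand1 and Nt5e near Tbx18 were lower in Day4, with log2 fold changes of -1.75 ± 0.04 (adjusted p = 3.2e-13) and -1.78 ± 0.18 (adjusted p = 7.9e-07). Sap30l near Hand1, Fbxo8 near Hand2, Cep162 near Tbx18, Itga1 near Isl1 and the tested neighbours of Osr1 and Tbx5 did not pass the thresholds.

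**Figure D3:**
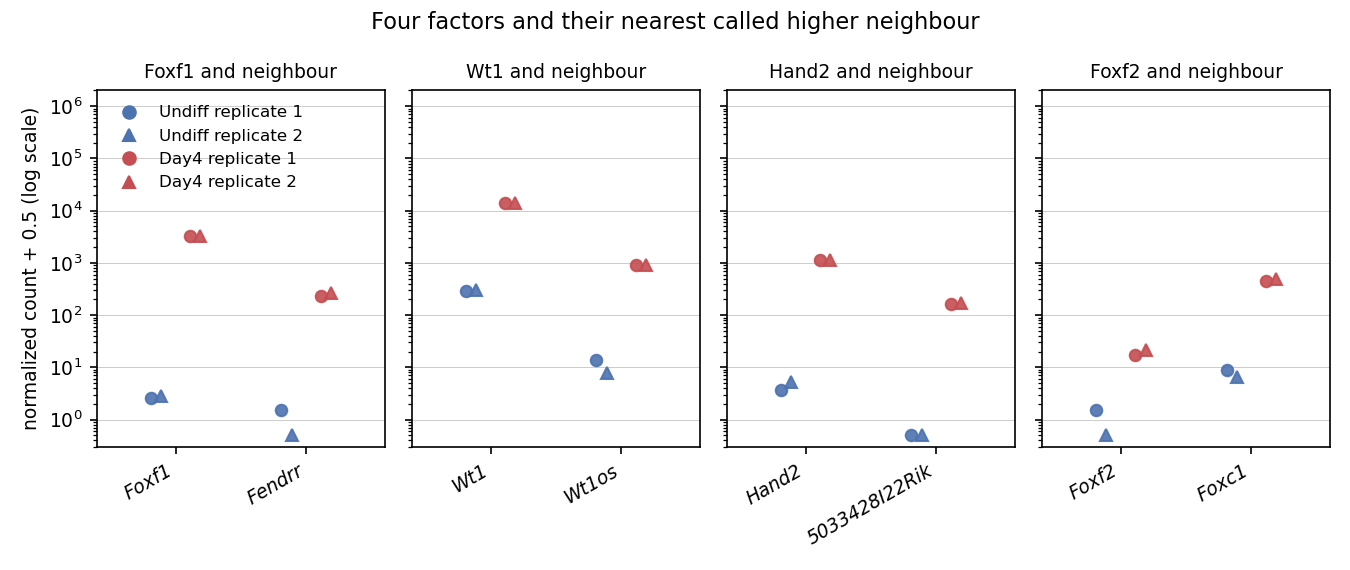
Normalized counts of Foxf1, Wt1, Hand2 and Foxf2 beside those of a neighbouring gene, with 0.5 added and a log axis. Blue is Undiff and red is Day4, circles are replicate 1 and triangles replicate 2, and the 4 pairs were chosen after the values were seen. Each neighbour is higher in both Day4 libraries than in either Undiff library, and the Day4 means of Foxf2 and Foxc1 are 19.1 and 470 normalized counts.

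The genes whose counts over the 4 libraries were most like those of Tcf21 were found by Euclidean distance between log2(CPM + 0.5) values, over all 19891 genes tested. The nearest were Sptssb, Hlx, Foxc2, Ifi203 and Tgm5, at distances of 0.119, 0.339, 0.365, 0.365 and 0.407. Hlx is a homeobox gene of gut mesenchyme and Foxc2 a forkhead gene of mesenchyme and lymphatic vessels. Hlx had 4 and 0 fragments in Undiff and 2124 and 2552 in Day4, and Foxc2 5 and 1 against 2071 and 2927, beside 0 and 1 against 2002 and 2784 for Tcf21. Ifi203 shares exon bases with Mndal, so its counts are uncertain. Of the other factors, Foxf1 was the 25th nearest gene to Tcf21, Hand2 the 45th and Tbx5 the 61st, and Hand1 the 7311th. The measure uses 4 libraries in a pair of states, so that it finds genes of like abundance in Day4 that are near 0 in Undiff.

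Other transcription factors of lateral mesoderm, heart and limb field were read from a list of 25 genes. Of these, 22 rose, 0 fell and 3 did not pass the thresholds, while 22.2% of all genes tested were called higher and 20.6% lower. The median log2 fold change of the list was 3.54 (3.59 without genes at the floor in both states), against -0.03 over all genes tested. The gene lists, this one included, were chosen with earlier results of these data known. Their counts, medians and p-values are therefore a description and not independent support. Bnc1, a zinc finger gene of mesothelium, had 2 and 7 fragments in Undiff and 4922 and 6917 in Day4 and rose by 9.99 ± 0.14 on the log2 scale (adjusted p = 2.4e-15). Tbx2, a T-box repressor of the outflow tract and limb, rose by 9.03 ± 0.13 (adjusted p = 3.1e-15), and Gata5, a partner of Gata4 and Gata6 in heart and gut mesoderm, by 7.82 ± 0.17 (adjusted p = 1.3e-13). Gata5 shares exon bases with Gata5os, so its counts are uncertain. Nkx2-5, the homeobox gene of the early heart field, had 2 and 0 fragments in Undiff and 1 and 4 in Day4. Tbx20 had 184 and 151 fragments in Undiff and 239 and 265 in Day4 (log2 fold change 0.26 ± 0.13, adjusted p = 0.084), and Nkx3-2, a gene of splanchnic and paraxial mesoderm, had 0 in each Undiff library and 1 in each Day4 library. The heart field genes were thus not uniform in Day4, with Tbx5, Hand2 and Isl1 at 233 fragments or more in each library and Nkx2-5 at the floor or just above it.

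Signals that act upstream of these factors were read from lists for the BMP and Hedgehog pathways. Of 18 BMP ligands, receptors, Smad proteins and antagonists, 10 rose, 1 fell and 7 did not pass, with a median log2 fold change of 1.36. The shares of all genes tested, 22.2% called higher and 20.6% called lower, are the background of every list in this report. Some lists share genes, so that their counts are not separate. Bmp4 is also in the splanchnic mesenchyme list, and Bnc1 is in both the lateral mesoderm and the mesothelial list. Bmp5 had 0 fragments in both Undiff libraries and 347 and 545 in Day4, at least 236-fold higher when set against 3 counts over the Undiff libraries (adjusted p = 1.1e-10). Smad9, a BMP receptor Smad, and Smad6, an inhibitory Smad, rose by 5.22 ± 0.12 (adjusted p = 1.5e-13) and 4.32 ± 0.13 (adjusted p = 3.4e-12) on the log2 scale. Grem1, a secreted BMP antagonist, fell by 1.04 on the log2 scale (SE 0.36, adjusted p = 0.019). Bmp4, the ligand best known for inducing Hand and Tbx genes in lateral mesoderm, had 916 and 990 fragments in Undiff and 680 and 929 in Day4, and its log2 fold change of -0.58 ± 0.09 was under the minimum size. Bmp4 shares exon bases with Gm15217.

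Of 11 Hedgehog genes, 5 rose, 2 fell and 4 did not pass, with a median log2 fold change of 0.92. Foxf1 is a target of this pathway, and the ligand genes Shh and Ihh were called higher too. Shh had 0 and 3 fragments in Undiff and 187 and 322 in Day4 (adjusted p = 1.9e-09), and Ihh rose by 3.89 ± 0.25 on the log2 scale (adjusted p = 7.2e-09). Shh shares exon bases with a noncoding gene, 9530036O11Rik. Smo, the signal transducer, rose by 2.78 ± 0.06 (adjusted p = 4.8e-14). Dhh, a further ligand gene, fell from 29 and 21 fragments in Undiff to 10 and 9 in Day4 (log2 fold change -1.71 ± 0.39, adjusted p = 0.0014). Dhh shares exon bases with Rhebl1. Gli1 and Ptch1, which are targets of active Hedgehog signalling, had log2 fold changes of 0.16 ± 0.05 and -0.19 ± 0.06 and did not pass the minimum size. Gli1 shares exon bases with Arhgap9. The part of Hedgehog signalling in the Foxf1 values was not tested.

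Protein partners of the bHLH factors and of Isl1 were read from a pair of lists. Tcf21, Hand1 and Hand2 bind DNA as dimers with E proteins, and Id proteins sequester those E proteins. Of 7 such genes, 4 rose, 0 fell and 3 did not pass, with a median log2 fold change of 1.42. The E protein gene Tcf12 rose from 1020 ± 28.1 to 9758 ± 210 normalized counts (SD, n = 2; adjusted p = 6.2e-15), while the Id genes Id3 and Id2 rose by 4.57 ± 0.07 (adjusted p = 7.5e-15) and 3.11 ± 0.05 (adjusted p = 8.0e-15) on the log2 scale. Genes for E proteins and for their Id inhibitors were thus both among those called higher. Isl1 works with LIM domain binding proteins, and of 9 genes for these and related cofactors 7 rose, 1 fell and 1 did not pass, with a median log2 fold change of 1.91. Ldb2 rose by 6.53 ± 0.16 (adjusted p = 2.9e-13) and Ssbp2 by 4.26 ± 0.07 (adjusted p = 1.6e-14), though Ssbp2 shares exon bases with 4833422C13Rik. Rlim, a ubiquitin ligase for the LIM cofactors, fell by 1.37 on the log2 scale (SE 0.04, adjusted p = 3.4e-12).

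Genes of the tissues in which the factors act were read as 3 lists. Of 9 mesothelial and epicardial genes in the files, 8 rose and 1 fell, with a median log2 fold change of 3.54. Upk3b, a uroplakin of mesothelium, rose by 4.81 ± 0.10 (adjusted p = 1.0e-13), and Aldh1a2, the main RA-synthesizing enzyme of mesoderm, by 4.61 ± 0.11 (adjusted p = 2.0e-13). Msln, a surface protein of mature mesothelium, went against the list and fell from 202 and 211 fragments in Undiff to 10 and 7 in Day4 (log2 fold change -4.91 ± 0.26, adjusted p = 8.5e-10).

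Of 14 genes of splanchnic mesenchyme, 12 rose, 0 fell and 2 did not pass, with a median log2 fold change of 3.34. Col3a1, a fibrillar collagen, rose by 9.14 ± 0.09 on the log2 scale (adjusted p = 2.3e-16), Wnt2b, a ligand of lung and gut mesenchyme, by 6.68 ± 0.11 (adjusted p = 9.5e-15), and Postn, a matrix protein, by 5.48 ± 0.12 (adjusted p = 1.6e-13). Of 12 genes of kidney and gonad, in which Wt1 and Osr1 act, 8 rose, 3 fell and 1 did not pass, with a median log2 fold change of 1.84. Emx2 rose by 7.02 ± 0.23 (adjusted p = 5.7e-12), Lhx1 by 5.39 ± 0.23 (adjusted p = 7.7e-11) and Six2 by 4.88 ± 0.31 (adjusted p = 6.6e-09). Emx2 shares exon bases with Emx2os. Nphs1, the podocyte slit diaphragm gene, fell from 2995 and 2680 fragments in Undiff to 6 and 9 in Day4 (adjusted p = 1.9e-15), and it shares exon bases with Nphs1os. Sall1, which ESCs also express, fell by 6.05 on the log2 scale (SE 0.07, adjusted p = 9.9e-16), and Pax8 by 1.84 (SE 0.25, adjusted p = 1.7e-05).

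**Figure D4:**
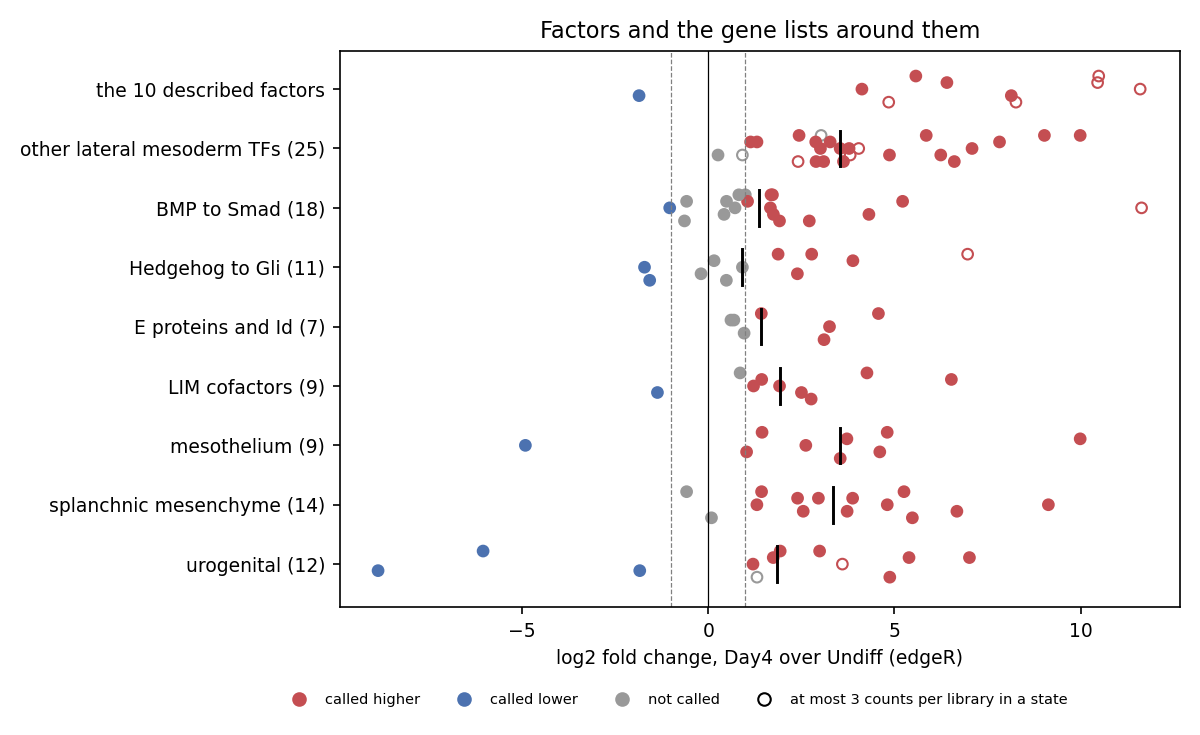
Log2 fold change of Day4 over Undiff from edgeR for the 10 factors and for 8 gene lists, with the number of tested genes in brackets. Red points were called higher, blue points lower and grey points neither, open points had at most 3 counts in each library of a state, black bars are list medians and dashed lines mark 1 and -1. The fitted values of open points depend on the smoothing of low counts, and the medians run from 0.92 for the Hedgehog list to 3.54 for the other lateral mesoderm factors and for mesothelium.

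The factors were also set against their own protein families. Tbx2, Tbx3, Tbx4, Tbx20, Lhx9, Twist1 and Twist2 were also in the list of other lateral mesoderm factors. Of 15 T-box genes other than Tbx5 and Tbx18, 6 rose, 6 fell and 3 did not pass. Tbx2 rose, as given above, while T, Eomes and Mga fell, with log2 fold changes of -5.78 ± 0.45 (adjusted p = 3.8e-08), -3.78 ± 0.28 (adjusted p = 2.5e-08) and -1.14 ± 0.04 (adjusted p = 1.4e-11). T and Eomes mark the primitive streak. The other T-box genes that fell were Tbx19, Tbx21 and Tbx22. Tbx21 had 63 and 58 fragments in Undiff and 1 in each Day4 library. Tbx19 had 6 and 13 fragments in Undiff and 0 in each Day4 library, and Tbx22 29 and 37 against 3 and 0. Of 11 LIM homeobox genes other than Isl1, 8 rose, 0 fell and 3 did not pass, and Lhx2 rose most, from 8 and 14 fragments to 4121 and 4779 (adjusted p = 4.4e-14). Isl2, the closest relative of Isl1, had 6 fragments in each Undiff library and 28 and 33 in Day4 (adjusted p = 6.8e-04). Of 7 further bHLH genes of the Twist type, the class that holds Tcf21 and the Hand genes, 3 rose and 4 fell. Twist1 rose by 6.25 ± 0.11 (adjusted p = 1.7e-14) and Scx by 5.25 ± 0.23 (adjusted p = 1.1e-10), while Tcf15, a gene of paraxial mesoderm, fell by 4.31 on the log2 scale (SE 0.10, adjusted p = 3.2e-13). The Twist type genes Ferd3l and Ptf1a had 0 counts in all 4 libraries.

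The 4 libraries were checked against marker lists of other cell types. All 8 pluripotency markers, with Pou5f1 and Nanog among them, were called lower in Day4, and their summed level was 3768 and 3855 CPM in Undiff and 21.1 and 17.8 CPM in Day4. Of 7 early mesoderm markers 2 rose and 3 fell, and they summed to 17.0 and 15.4 CPM in Undiff and to 118 and 124 CPM in Day4. Without Kdr, that sum was 11.6 and 8.95 CPM in Undiff and 3.26 and 3.94 CPM in Day4. Of 10 paraxial mesoderm markers 4 rose, with Foxc1 and Foxc2 among them, and 2 fell, namely Tcf15 and Dll3. The paraxial markers summed to 41.3 and 41.5 CPM in Undiff and to 88.1 and 91.3 CPM in Day4. Without Foxc2, they summed to 41.1 and 41.5 CPM in Undiff and to 30.3 and 31.2 CPM in Day4. The 8 cardiomyocyte markers, of which 3 rose and 4 fell, summed to between 41.9 and 46.5 CPM in Undiff and to 24.2 and 23.6 CPM in Day4. Without Myh6 they summed to 26.97 and 29.98 CPM in Undiff and to 23.9 and 23.2 CPM in Day4. Myh6, the atrial myosin gene, fell from 536 and 518 fragments to 10 and 18 (adjusted p = 3.4e-12), and Tnnt2 rose from 16 and 7 to 238 and 201 (adjusted p = 2.9e-07). The 7 endoderm markers, of which 6 rose and 0 fell, summed to 5.73 and 3.93 CPM in Undiff and to 34.9 and 38.6 CPM in Day4, and the 6 endothelial markers, of which 4 rose and 2 fell, to 169 and 166 CPM and to 182 and 189 CPM. Without the gene with the highest level in the list, which is Cxcr4 for endoderm and Pecam1 for endothelium, the endoderm sums were 3.01 and 2.65 CPM in Undiff and 10.8 and 14.3 CPM in Day4, and the endothelial sums 28.7 CPM in each Undiff library and 122 and 128 CPM in Day4. The sums without 1 gene were added after the data were seen. The part of each of these cell types in the values of the 10 factors was not tested.

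**Figure D5:**
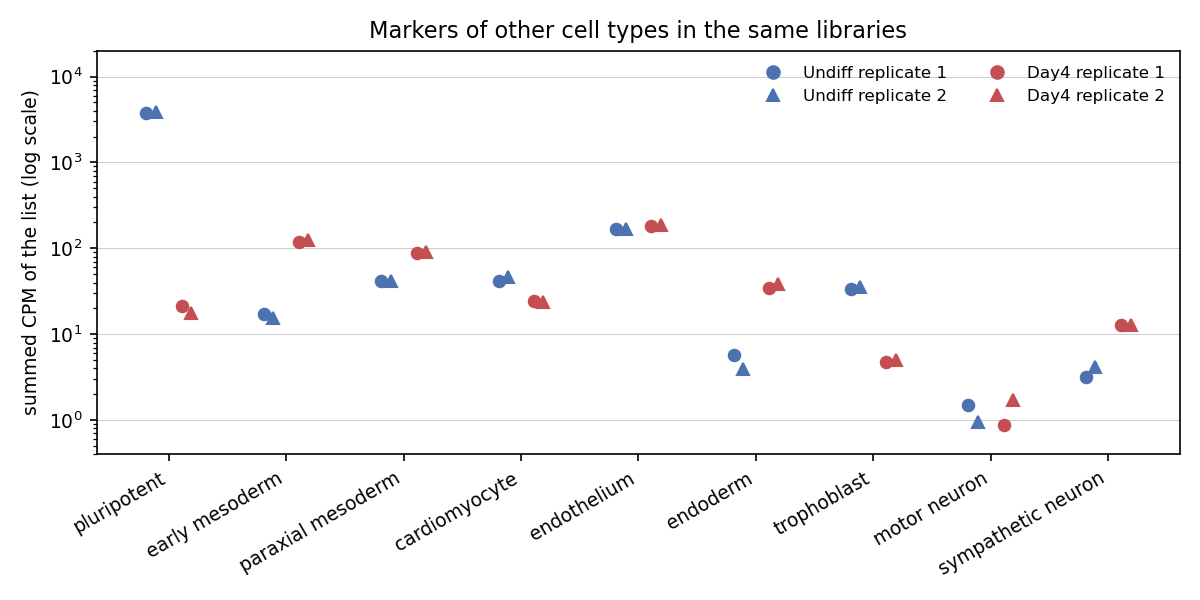
Summed CPM of 9 marker lists in each library, on a log axis. Blue is Undiff and red is Day4, with circles for replicate 1 and triangles for replicate 2. Pluripotency markers drop from above 3768 CPM to 21.1 CPM or less, and the motor neuron list stays at 1.70 CPM or less in all 4 libraries.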

How the data were processed

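The paired-end Illumina TruSeq reads were trimmed (cutadapt), aligned to mm10 (STAR 2.4.2a) and counted per gene (HTSeq) by the authors, according to the paper and the submitters' processing notes. Each deposited file lists unnormalized counts of uniquely aligned fragments by gene symbol. Fragments with several alignments were not counted, which lowers genes with close copies, and the methods say that gene counting took strandedness into account, naming Direct RNA as strand-specific, without the option used for TruSeq. Groups and replicates were taken from the sample labels. The members and gene lists were chosen with earlier results of these data known.

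Counts were scaled by TMM and fitted with edgeR 4.0.16 (glmQLFit, glmQLFTest) in R 4.3.3 over the 19891 genes with a count, with Benjamini-Hochberg adjustment over all of them. Thresholds were those of the study: adjusted p at most 0.05, log2 fold change at least 1 in size, mean normalized count at least 5. SE is the log2 fold change divided by the square root of F. Rows that name no gene were left out of library sizes. Ratios carry 95% exact binomial intervals that cover counting error only. Positions and lengths are from GENCODE vM21 on GRCm38, and TPM uses the union of exons. Named genes were the 10 factors with 4 values each, in each list the called genes with the 3 highest and 3 lowest log2 fold changes and up to 5 that went against the list, called neighbours, and the 5 genes nearest to Tcf21. Other genes were named after their values were seen, among them Nkx2-5, Nkx3-2, Tbx20, Bmp4, Gli1, Ptch1, Isl2 and Scx. The alternatives included DESeq2 1.42.0 and are given in the closing section. The ONT libraries and protein sequences were not used here, and some list genes are counted but not reported singly here.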

Additional observations from a re-analysis of the deposited data

How the results depend on the processing

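Under DESeq2 (shrunken or not), edgeR with the size factors of DESeq2 or with library totals, filterByExpr, a replicate block and leaving out each library in turn, all 10 factors kept their direction and their call. Undiff and Day4 carry the same replicate numbers, but the replicates were grown separately and the replicate differences of Undiff and Day4 had a correlation of -0.01 over 16472 genes, so that the numbers were not taken as pairs. With the replicate block, 8515 genes were called (8521 without it), 4414 higher and 4101 lower, and of the lists 22 other lateral mesoderm factors, 17 BMP and Hedgehog genes, 31 mesothelial, mesenchymal and urogenital genes, 12 partner and cofactor genes and 27 family genes. Without a minimum fold change, 14309 genes were called, 7305 higher and 7004 lower, and 29 BMP and Hedgehog genes in place of 18, because a smaller change then suffices. Leaving out a library gave between 8306 and 8410 genes, 4195 to 4439 higher and 3889 to 4170 lower. It gave 10 of the 10 factors each time, 9 higher and 1 lower, 21 to 22 other lateral mesoderm factors, 17 to 18 BMP and Hedgehog genes, 30 to 32 tissue genes, 12 to 13 partner genes and 25 to 27 family genes. The fitted log2 fold changes of factors with few Undiff fragments depended on single libraries, with 10.65 to 14.15 for Tcf21, 9.72 to 12.98 for Tbx5, 7.41 to 12.15 for Osr1 and 4.08 to 7.34 for Foxf2, and that of Isl1 ran from 3.67 to 4.69, whereas that of Wt1 stayed between 5.54 and 5.61. The highest of these values came without Undiff replicate 2 for Tcf21 and Isl1 and without Undiff replicate 1 for Tbx5, Osr1 and Foxf2, which held most or all of their Undiff fragments. The largest shift of the median log2 fold change of all genes was to -0.10, without Day4 replicate 2. With the longest transcript in place of the union of exons, Day4 TPM was 351 for Wt1, 106 for Foxf1, 91.6 for Tcf21, 37.5 for Hand2, 21.2 for Osr1, 19.1 for Tbx5, 10.3 for Tbx18, 7.56 for Isl1, 1.68 for Hand1 and 0.627 for Foxf2, in the same order. With a pseudocount of 1, 3 of the 5 genes nearest to Tcf21 were shared, namely Sptssb, Foxc2 and Hlx. At 1 to 3 Undiff fragments, depth limits how precisely a ratio can be known.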
